A study of Mus musculus with 12 samples.

Results

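Complement genes of mesenchymal cells were lower in NG2/CSPG4 knockout fibrochondrocytes than in wild type cells, with Masp1 as the exception. The set holds 8 of the 31075 genes in the deposited table, taken by gene name and chosen with earlier results of these data known. They are C1ra, C1s1 and Masp1 (the proteases that start the cascade), C3, C4b and Cfb (its substrates and convertase protease), and Serping1 and Cd55 (its inhibitors). The C1q genes, which macrophages transcribe, are not members and are described separately. The samples were primary cells grown out of the mandibular condylar cartilage of mouse pups 10 to 14 days old, and their messenger RNA was sequenced. Collagenase released the cells, and the labels place RNA collection at passage 4, whereas the study's methods describe use at earlier passages.

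There were 12 libraries in 4 groups of 3. KO cells (titled NG2_Opti and NG2ko_Norm, with a knockout genotype entry for all 6 libraries) carried a deletion allele made by crossing the knockout-first line Cspg4tm1a(KOMP)Wtsi/Bcm with Cre mice and backcrossing to C57BL/6J. The deletion is inherited and not limited to cartilage. WT cells (titled Cont) were C57BL/6J. Opti stands for Opti-MEM without serum and Norm for AMEM with heat-inactivated FBS, and cells in either medium had L-Glut, Pen and Plasmocin. Opti and Norm thus differ in serum and in basal medium, which cannot be told apart. The methods give 3 biological replicates for the sequencing, without saying whether these were separate animals or separate cultures. Nothing in the sources ties a library to an animal or culture, so the p-values measure the spread between libraries, whose source is not given.

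The labels of the 6 KO libraries contradict each other. Each KO library titled Opti has a treatment entry that names the Norm medium, and each KO library titled Norm has an entry that names Opti. KO_Opti and KO_Norm below follow the titles. Values under the other reading are given for some of the results that turn on it. Every other result by title or within titles depends on the label used as well. The WT groups and the comparison of KO with WT over both media do not depend on this choice.

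Complement is a chain of proteases that tags surfaces for clearance. In the classical pathway, C1q recruits the proteases C1r and C1s, and C1s cuts C4 and C2. In the lectin pathway, MASP proteases bound to mannose-binding lectins and collectins do the same. Cuts of C3 form the centre of all routes, and factor B supplies the protease of the alternative convertase that amplifies them. C1 inhibitor, the product of Serping1, blocks C1r, C1s and some of the MASPs, and CD55 speeds the decay of C3 convertases on the cell surface. The liver makes most circulating complement, while fibroblasts and chondrocytes make C1r, C1s, C1 inhibitor and C3 locally.

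Libraries held 51546504 to 71448484 counts. The targeted gene was low in every KO library, with 10.5 to 16.6 CPM of Cspg4 in the 6 KO libraries against 114 to 216 CPM in the 6 WT libraries. CPM here means counts relative to library size after TMM scaling. Fibrochondrocyte markers summed to 35153 to 85946 CPM in KO libraries and 94197 to 145557 CPM in WT libraries, most of it Col1a1 and Col1a2. Sox9 and Col2a1, which mark chondrocytes, were present in all libraries at 40.6 to 84.9 CPM and 16.7 to 102 CPM. WT_Norm replicate 2 stood apart with 47.2 CPM of 7 endothelial markers and 141 CPM of 5 epithelial markers, against 1.82 to 9.12 CPM and 0.798 to 32.1 CPM in the other 11 libraries. WT_Norm replicate 3 held 280 CPM of 10 liver transcripts, against 0 to 0.836 CPM elsewhere. Its Alb level was 169 CPM. Summed myeloid markers were lowest in KO_Opti, at 197 to 229 CPM, against 550 to 600 CPM in KO_Norm, 638 to 1106 CPM in WT_Opti and 505 to 618 CPM in WT_Norm. Y-linked genes summed to 73.5 to 129 CPM in KO libraries and 37.5 to 66.1 CPM in WT libraries.

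Some members share sequence with a neighbouring gene, which limits how reads can be assigned. The positions in the table match GENCODE M21 on GRCm38. C4b lies at chr17:34728380-34743882, and 35.2% of the 50-base words of its longest coding transcript also occur in C4a. C1ra lies at chr6:124512405-124523443 and shares 48.0% of such words with C1rb. C1s1 at chr6:124530345-124542359 shares 24.3% with C1s2, and Cd55 at chr1:130439027-130462744 shares 13.3% with Cd55b. Cfb at chr17:34856374-34862518 shares 81.4% with Gm20547, a gene model on the same strand that overlaps it. C3 at chr17:57203970-57228136 and Serping1 at chr2:84765387-84775444 share no word with another gene, and Masp1 at chr16:23449417-23520815 shares 0.302%. The values of C4b, C1ra, C1s1, Cd55 and Cfb therefore depend on how the authors' counting split such reads.

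The proteases C1ra and C1s1 were the most abundant members per unit of transcript length. In FPKM, the authors' length-scaled value, C1ra averaged 31.6 ± 4.79 in KO_Opti, 33.1 ± 1.20 in KO_Norm, 50.3 ± 1.13 in WT_Opti and 58.2 ± 5.35 in WT_Norm (SD, n = 3 each). C1s1 came next in every group, between 20.2 and 39.4 FPKM. The order below them differed by genotype. In KO Masp1 came after them, with 11.9 FPKM in KO_Opti and 19.6 FPKM in KO_Norm, ahead of Serping1 with 2.83 and 5.31 FPKM. In WT cells Serping1 came after them, with 18.6 FPKM in WT_Opti and 18.9 FPKM in WT_Norm, ahead of Masp1 with 4.03 and 12.2 FPKM. The ranges of C1s1 and Masp1 overlapped in KO_Norm, at 18.5 to 22.9 and 16.8 to 21.2 FPKM. Cd55, Cfb, C3 and C4b were low in all groups, with means of 0.242 to 3.19 FPKM, and the order among them was not fixed. C3 and C4b overlapped in KO_Opti, KO_Norm and WT_Opti, and Cd55 and Cfb overlapped in KO_Opti and WT_Norm.

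**Figure D1:**
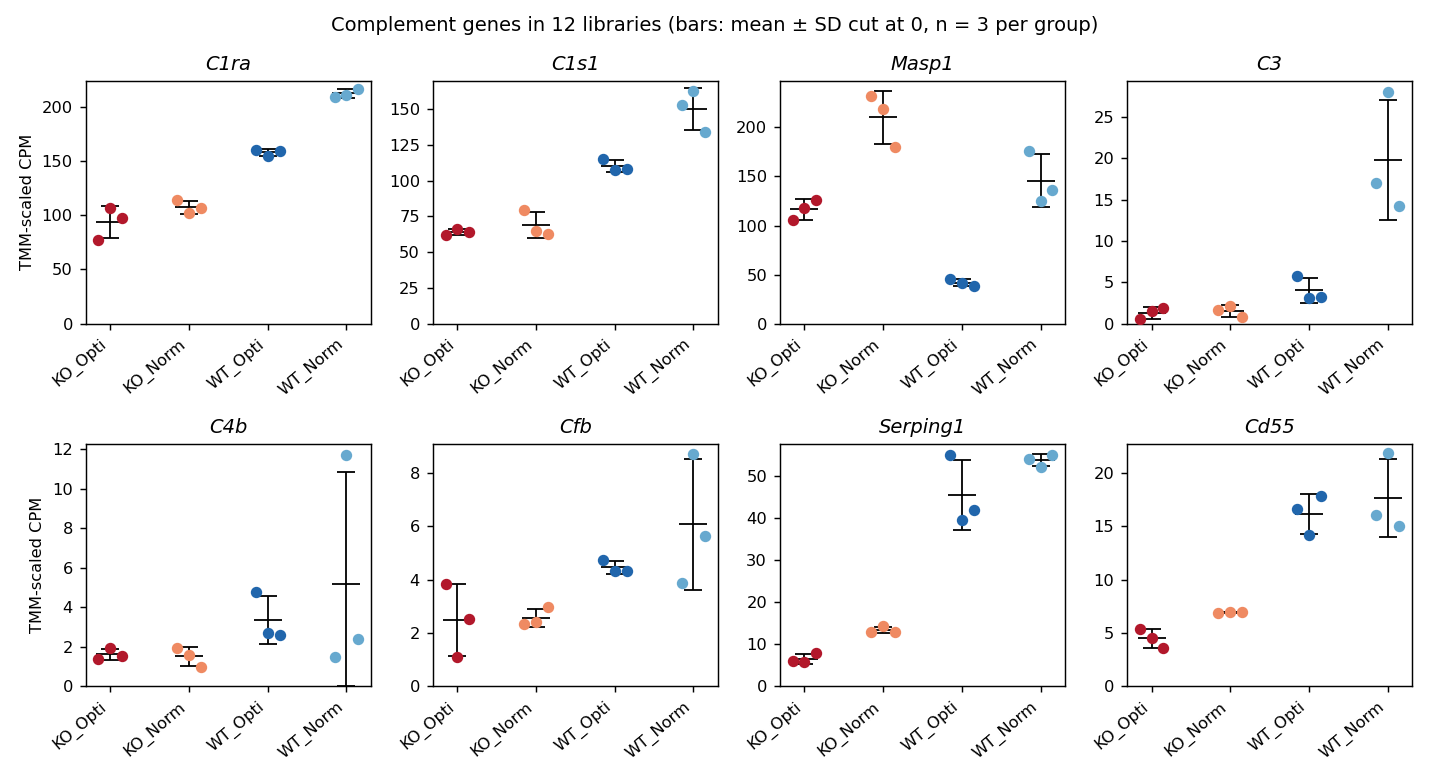
TMM-scaled CPM (vertical axes, linear, from 0) of the 8 complement genes in each library, by group (horizontal axes). Points are libraries, and bars give the mean ± SD of 3. The KO points of C1ra, C1s1, C3, Cfb, Serping1 and Cd55 lie below every WT point, while Masp1 is lowest in WT_Opti. For Cfb the gap is small (3.82 against 3.87 CPM), and how many of all genes separate in this way was not counted.

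Of the 8 members, 7 were lower in KO than in WT cells over both media, and Masp1 was higher. All 8 passed edgeR's quasi-likelihood test with Benjamini-Hochberg adjustment over 19118 genes, called at an adjusted p under 0.05. Of all genes tested, 16% were called lower and 18% higher in this comparison. The median log2 fold change of the members was -1.23, against 0.01 for all genes. The members were chosen with earlier results of these data known, so their contrast with all genes is not independent of the choice. Under Norm titles 7 members were lower and Masp1 was higher, where 17.2% of all genes were called lower and 18.9% higher. Under Opti titles 5 members were lower, Masp1 was higher, and C4b and Cfb did not pass, where 14.9% and 13.3% of all genes were called lower and higher. KO libraries also held more Y-linked RNA and a lower sum of fibrochondrocyte markers, and markers of vascular cells were lower in them. Of 11 fibrochondrocyte markers, 6 were called lower and 4 higher in KO over both media, with a median of -0.28. Mural markers, of the smooth muscle and pericytes around vessels, summed to 9.84 to 19.4 CPM in KO and 37.0 to 58.6 CPM in WT libraries, with 3 of 5 called lower. Endothelial markers summed to 1.82 to 3.76 CPM in KO and 4.26 to 47.2 CPM in WT libraries, with 4 of 6 tested called lower. The part of these marker sums in the results was not tested. With the mean Y-linked level as a covariate, 4 members passed (C1s1, C4b, Serping1 and Cd55) and kept their direction, and calls over all genes fell to 714, against 6491 without it. The Y-linked sums did not overlap between genotypes (73.5 to 129 CPM in KO and 37.5 to 66.1 CPM in WT libraries). The covariate and genotype therefore cannot be told apart well in that fit, and neither its kept nor its lost calls show the part of the Y-linked level. In bulk RNA, fewer cells of a type and less RNA per cell cannot be told apart.

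**Figure D2:**
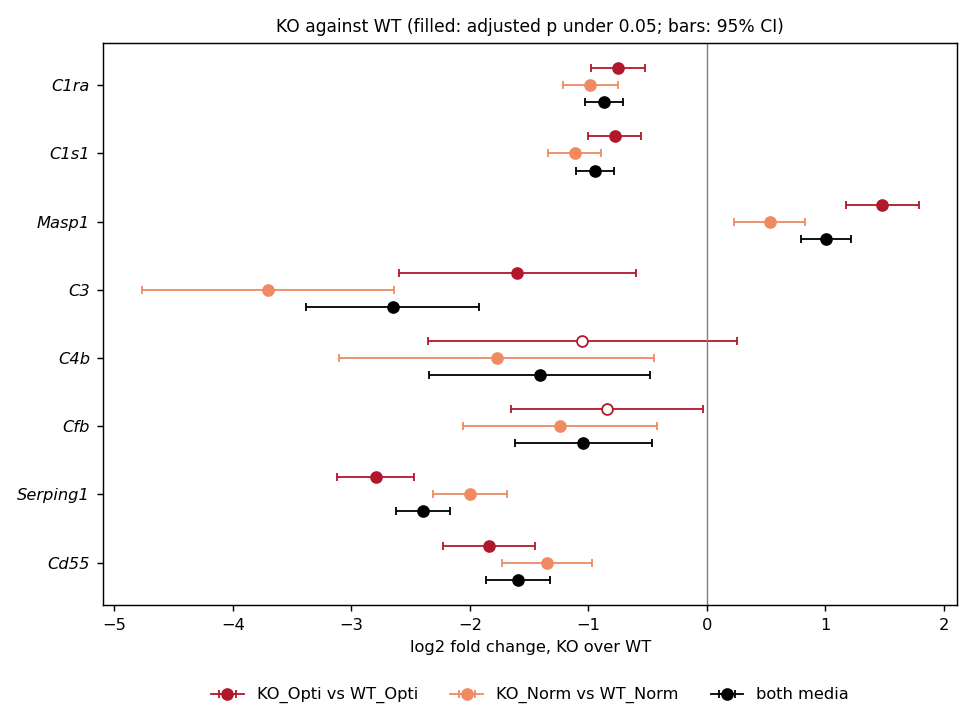
Log2 fold change of KO over WT (horizontal axis) for each member, within Opti titles, within Norm titles and over both media. Bars are 95% confidence intervals and filled points have an adjusted p under 0.05; the open points are C4b and Cfb within Opti titles, and Masp1 is the 1 gene right of 0.

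In WT cells, 4 members were lower in Opti than in Norm and none was higher. C3, Masp1, C1ra and C1s1 were called lower, and C4b, Cfb, Serping1 and Cd55 did not pass. Of all genes, 19.6% were called lower and 20.3% higher. The median of the members was -0.44, against -0.01 for all genes. Scaling by library size alone moved the median of all genes up by 0.15 and the share of calls that were higher to 64.4%, against 50.9% with TMM scaling. The same 4 members passed under that scaling, and Cd55, not called, moved to 0.03, while limma on log2(FPKM + 0.1) called 2 of them, C3 and Masp1. In KO cells, Serping1, Cd55 and Masp1 were lower in Opti than in Norm by title, where 11% of all genes were called lower and 8.39% higher. These 3 directions are the opposite under the treatment entries.

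**Figure D3:**
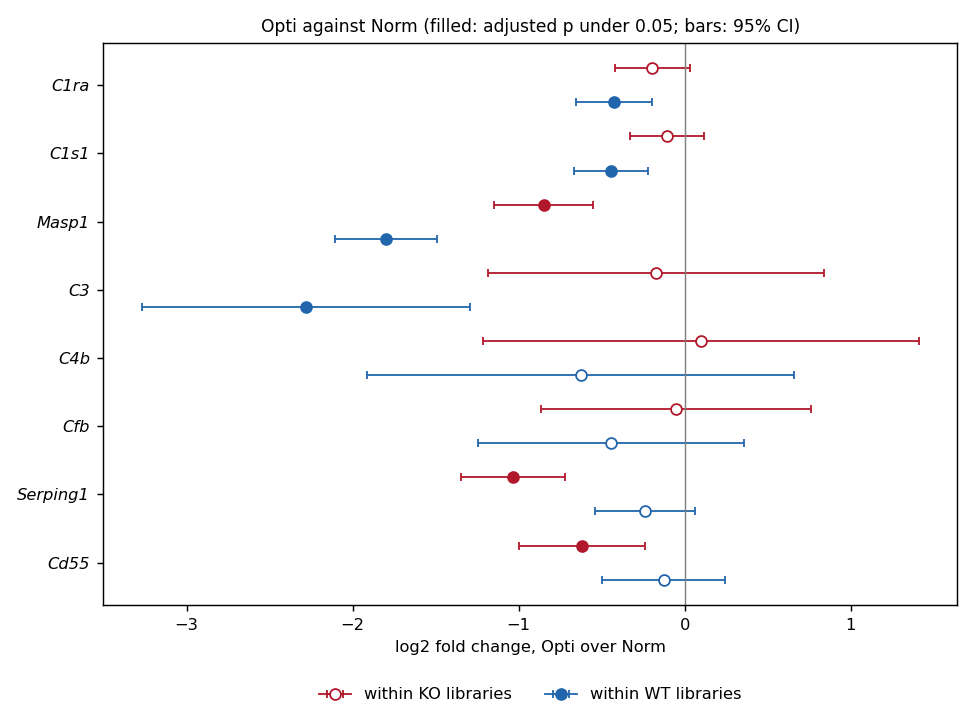
Log2 fold change of Opti over Norm (horizontal axis) for each member, within KO libraries grouped by title and within WT libraries. Bars are 95% confidence intervals and filled points have an adjusted p under 0.05; C3 lies at -0.17 in KO and -2.28 in WT libraries.

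C1ra and C1s1, the proteases of the C1 complex, were lower together in KO cells. C1ra measured 77.5, 107 and 97.3 CPM in KO_Opti and 114, 102 and 107 CPM in KO_Norm, against 160, 155 and 160 CPM in WT_Opti and 209, 211 and 217 CPM in WT_Norm. All 6 KO libraries were below all 6 WT libraries, and how many of all genes separate in this way was not counted. The difference over both media was 1.82-fold, a log2 change of -0.87 ± 0.07 (SE, adjusted p = 2.63e-06).

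C1s1 measured 62.2, 66.2 and 64.0 CPM in KO_Opti and 79.7, 64.9 and 62.9 CPM in KO_Norm, against 115, 107 and 108 CPM in WT_Opti and 153, 162 and 134 CPM in WT_Norm. Its KO and WT libraries did not overlap either. It was 1.93-fold lower in KO, at -0.95 ± 0.07 on the log2 scale (SE, adjusted p = 1.02e-06). In WT cells the Opti libraries of each gene lay below the Norm libraries, by 1.34-fold for C1ra and 1.36-fold for C1s1 (adjusted p = 0.00606 and 0.00397). With WT_Norm replicate 1 as the sole WT_Norm library, the C1ra difference was -0.41 and did not pass (adjusted p = 0.0853). Wherever that setting is given, the lone library is assumed to vary as the other groups do. In KO cells neither gene passed between media, with 95% intervals of -0.42 to 0.03 for C1ra and -0.33 to 0.11 for C1s1 on the log2 scale. The difference between the KO and WT medium responses of these genes did not pass by title, at 0.23 for C1ra and 0.34 for C1s1 (adjusted p = 0.26 and 0.0965), and passed with the KO groups set by treatment entry, at 0.62 and 0.55 (adjusted p = 0.00593 and 0.0101). By title it also passed for C1ra without KO_Opti replicate 1 (adjusted p = 0.0334), and for C1s1 without KO_Norm replicate 1 or WT_Norm replicate 3 (adjusted p = 0.019 and 0.0429).

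The C1ra and C1s1 genes are convergent neighbours on chromosome 6, with 6902 bases between them. Their ratio in FPKM stayed between 1.31 and 1.78 over the 12 libraries. Among the 28 pairs of members they had the most similar pattern, with a root mean square difference of 0.13 log2 units in centred level. C1rl, which codes for a C1r-like protease on the other side of C1ra, was measured as well. It was 1.16 log2 units lower in WT_Opti than in WT_Norm (adjusted p = 1.52e-05) and its genotype difference depended on the medium. C1rl was -0.90 in KO_Norm against WT_Norm (adjusted p = 0.000168) and 0.61 in KO_Opti against WT_Opti (adjusted p = 0.00359) by title, which average to -0.15 over both media (adjusted p = 0.237). Under the treatment entries C1rl was -0.55 in KO titled Opti against WT_Norm (adjusted p = 0.00404). In KO titled Norm against WT_Opti it was 0.26 and did not pass (adjusted p = 0.181). C1rb, the paralog beyond C1s1, averaged 9.11 CPM in KO and 20.4 CPM in WT libraries, a log2 change of -1.15 (adjusted p = 0.000609). With the counts of C1ra and C1rb summed, and of C1s1 and C1s2 summed, no call of either gene in the 6 comparisons was lost.

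Masp1, which codes for the lectin pathway protease MASP-1 and by alternative splicing for MASP-3 and an inhibitor, went the other way. It measured 106, 118 and 126 CPM in KO_Opti and 232, 219 and 180 CPM in KO_Norm, against 45.9, 41.4 and 38.1 CPM in WT_Opti and 176, 125 and 136 CPM in WT_Norm. Counts per gene do not separate the splice forms. Within titles, all KO libraries were above the WT libraries of the same medium, although KO_Opti and WT_Norm overlapped. Masp1 was 2.79-fold higher in KO_Opti than in WT_Opti (1.48 ± 0.14, adjusted p = 9.22e-06) and 1.44-fold higher in KO_Norm than in WT_Norm (0.53 ± 0.14, adjusted p = 0.00986). With WT_Norm replicate 1 as the sole WT_Norm library, the difference within Norm titles was 0.26 and did not pass (adjusted p = 0.327).

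Masp1 had the smallest adjusted p of the members between media in WT cells. It was 3.48-fold lower in WT_Opti than in WT_Norm (-1.80 ± 0.14, adjusted p = 7.94e-07) and 1.80-fold lower in KO_Opti than in KO_Norm by title (-0.85 ± 0.14, adjusted p = 0.00137). The difference between the responses, KO minus WT, was 0.95 ± 0.20 (adjusted p = 0.00273). Under the treatment entries that difference was 2.65, and Masp1 was higher in serum-free KO cells than in KO cells with serum. The KO libraries titled Opti then stand against WT_Norm, where Masp1 was -0.32 and did not pass (adjusted p = 0.0796), and those titled Norm stand against WT_Opti, where it was 2.33 higher (adjusted p = 5.83e-07). In those pairings, 20.3% of all genes were called lower and 21.3% higher for KO titled Opti against WT_Norm, and 11% and 12.6% for KO titled Norm against WT_Opti. All 7 other members were called lower in KO titled Opti than in WT_Norm, and 5 of them were lower in KO titled Norm than in WT_Opti.

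C3, the substrate on which all pathways converge, had the largest fold difference between genotypes of the 8 members over both media and within Norm titles, while within Opti titles those of Serping1 and Cd55 were larger. It measured 0.540, 1.58 and 1.89 CPM in KO_Opti and 1.63, 2.15 and 0.755 CPM in KO_Norm, against 5.82, 3.09 and 3.27 CPM in WT_Opti and 17.1, 27.98 and 14.2 CPM in WT_Norm. In counts these were 38 to 147 per KO library and 199 to 1773 per WT library. No KO library reached the lowest WT library. The difference over both media was 6.29-fold (-2.65 ± 0.33, adjusted p = 6.26e-05). Within Norm titles it was 13.0-fold (-3.71 ± 0.49, adjusted p = 8.96e-05) and within Opti titles 3.03-fold (-1.60 ± 0.46, adjusted p = 0.0204). The call within Opti titles was lost without KO_Opti replicate 1 (-1.23, adjusted p = 0.0675) or WT_Opti replicate 1 (-1.25, adjusted p = 0.0914).

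C3 was 4.86-fold lower in WT_Opti than in WT_Norm (-2.28 ± 0.46, adjusted p = 0.00152). In KO cells the media differed by -0.17 ± 0.47 (adjusted p = 0.841), and the responses differed by 2.11 ± 0.65 (adjusted p = 0.0256). That last call was lost without any 1 of KO_Norm replicate 3, KO_Opti replicates 2 and 3, WT_Norm replicate 2, and WT_Opti replicates 2 and 3, where the difference was 1.77 to 2.02 (adjusted p = 0.0557 to 0.0774). WT_Norm replicate 2, the library with endothelial and epithelial transcripts, had the highest C3, C4b, Cfb, Cd55 and C1s1 of the 12 libraries, and the part of those cells in these values was not tested. Without WT_Norm replicate 2, C3 was -1.95 in WT_Opti against WT_Norm (adjusted p = 0.00659) and -2.48 in KO against WT (adjusted p = 0.000171). With WT_Norm replicate 1 alone in its group these values were -2.07 and -2.54, and the difference between responses was 1.91 (adjusted p = 0.0911).

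C4b, the C4 substrate of the classical and lectin pathways, rested on few reads, and 1 library set much of its difference. It measured 1.41, 1.93 and 1.53 CPM in KO_Opti and 1.96, 1.60 and 0.987 CPM in KO_Norm, against 4.78, 2.70 and 2.59 CPM in WT_Opti and 1.49, 11.7 and 2.37 CPM in WT_Norm. WT_Norm replicate 2 was the highest by far, and KO_Norm and WT_Norm overlapped. The test called C4b lower in KO over both media (-1.41 ± 0.43, adjusted p = 0.0228). With WT_Norm replicate 1 as the sole WT_Norm library it was -0.50 (adjusted p = 0.21), without WT_Norm replicate 2 alone it was -0.69 (adjusted p = 0.0498), and with C4a counts added it was -0.86 (adjusted p = 0.101). The call was also lost without KO_Norm replicate 3, KO_Opti replicates 1 and 3 or WT_Opti replicate 1, each in turn (adjusted p = 0.0523 to 0.0604). Within Norm titles the call (-1.77, adjusted p = 0.0389) was lost on leaving out any 1 of 8 libraries, and without WT_Norm replicate 2 the value was -0.34 (adjusted p = 0.521). Within Opti titles C4b was -1.05 and passed without WT_Norm replicate 2 (adjusted p = 0.223 with it and 0.0337 without it). In WT cells the Opti and Norm groups overlapped, with a 95% interval of -1.91 to 0.66 on the log2 scale, and without WT_Norm replicate 2 the difference was 0.80 (adjusted p = 0.12). The partner C4a averaged 1.22 CPM in KO and 0.778 CPM in WT libraries (adjusted p = 0.302), and within Opti titles it was 1.47 log2 units higher in KO (adjusted p = 0.0411).

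Cfb, factor B of the alternative pathway, was lower in KO cells with a wide error. It measured 3.82, 1.11 and 2.52 CPM in KO_Opti and 2.33, 2.43 and 2.96 CPM in KO_Norm, against 4.74, 4.33 and 4.31 CPM in WT_Opti and 3.87, 8.71 and 5.63 CPM in WT_Norm. The highest KO library lay just under the lowest WT library. The difference was 2.06-fold (-1.04 ± 0.27, adjusted p = 0.00914). With WT_Norm replicate 1 as the sole WT_Norm library it was -0.71 (adjusted p = 0.0979). Within Norm titles (-1.24, adjusted p = 0.022) the call was lost without KO_Norm replicate 1 or 2 or WT_Norm replicate 2 (adjusted p = 0.0674 to 0.0978). Within Opti titles Cfb was -0.84 (adjusted p = 0.114), and -1.29 (adjusted p = 0.0309) without KO_Opti replicate 1.

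The lowest Cfb value came from the 1 library with counts of the overlapping model. KO_Opti replicate 2 had 83 counts of Cfb and 142 counts of Gm20547, which was at 0 in the other 11 libraries. The sum, 225 counts or 3.02 CPM, lay between the other KO_Opti libraries. With these counts summed, Cfb was -0.88 ± 0.19 in KO over both media (adjusted p = 0.00319). C2, which codes for the protease partner of C4 and lies near Cfb, measured 6.63 CPM in KO_Opti and 10.5 CPM in KO_Norm, against 28.3 CPM in WT_Opti and 15.9 CPM in WT_Norm. It was lower in KO over both media (-1.34 ± 0.09, adjusted p = 3e-07) and, unlike any member, higher in WT_Opti than in WT_Norm (0.83 ± 0.12, adjusted p = 0.000164). Nelfe, 2 bases from Cfb on the other side, averaged 29.2 CPM in KO and 27.96 CPM in WT libraries (adjusted p = 0.743).

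Serping1, the inhibitor of C1r, C1s and some of the MASPs, had the smallest adjusted p of the members between genotypes. It measured 5.96, 5.79 and 7.94 CPM in KO_Opti and 13.0, 14.3 and 13.0 CPM in KO_Norm, against 54.9, 39.6 and 42.0 CPM in WT_Opti and 54.0, 52.3 and 55.1 CPM in WT_Norm. The highest KO library was well under the lowest WT library. Over both media it was 5.26-fold lower in KO (-2.40 ± 0.10, adjusted p = 1.12e-08). The value was 6.93-fold within Opti titles and 4.00-fold within Norm titles (adjusted p = 1.05e-07 and 6.09e-07).

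Serping1 was 2.05-fold lower in KO_Opti than in KO_Norm by title (-1.04 ± 0.14, adjusted p = 0.000555). In WT cells it differed by -0.24 ± 0.14 (adjusted p = 0.192), and by -0.39 (adjusted p = 0.042) without WT_Opti replicate 1. The responses differed by -0.80 ± 0.20 (adjusted p = 0.00908) by title and by 1.28 (adjusted p = 0.000327) by treatment entry, so the sign rests on which label of the KO libraries holds. With WT_Norm replicate 1 as the sole WT_Norm library, the difference by title was -0.78 (adjusted p = 0.0573). The FPKM ratio of Serping1 to C1ra was 0.0693 to 0.104 in KO_Opti and 0.146 to 0.180 in KO_Norm, against 0.328 to 0.440 in WT_Opti and 0.317 to 0.331 in WT_Norm. That ratio did not overlap between KO and WT libraries, and its difference was not tested.

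Cd55, the membrane regulator of C3 convertases, was lower in KO cells in either medium. It measured 5.42, 4.50 and 3.63 CPM in KO_Opti and 6.91, 6.98 and 6.92 CPM in KO_Norm, against 16.6, 14.1 and 17.8 CPM in WT_Opti and 16.1, 21.8 and 14.99 CPM in WT_Norm. The 4 groups fell into a low KO and a high WT range with no overlap. Over both media it was 3.02-fold lower in KO (-1.59 ± 0.12, adjusted p = 1.14e-06). In WT cells the medium difference was -0.13 ± 0.17 (adjusted p = 0.603). In KO cells it was -0.62 ± 0.18 by title (adjusted p = 0.0268). That call was lost without KO_Norm replicate 2 or 3 or KO_Opti replicate 2 or 3 (adjusted p = 0.0578 to 0.114) and with library size alone as the scaling (-0.47, adjusted p = 0.0808). The responses differed by -0.49 (adjusted p = 0.144), and by -0.67 (adjusted p = 0.0434) without WT_Norm replicate 2. Its paralog Cd55b had 0 counts in all 6 KO libraries, which allows up to 0.0385 to 0.0463 CPM by counting error, and 0 to 16 counts in WT libraries.

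The C1q genes were lowest in KO_Opti, as were markers of myeloid cells. All 10 of 10 myeloid markers were lower in KO_Opti than in KO_Norm by title, where Serping1, Cd55 and Masp1 were also lower, and the part of these cells in the Serping1, Cd55 and Masp1 values was not tested. By title, the myeloid sums of KO_Norm and WT_Norm, at 550 to 600 CPM and 505 to 618 CPM, overlapped. C3, Serping1 and Cd55 were -3.71, -1.998 and -1.35 on the log2 scale between those groups, and the part of myeloid cells in these differences was not tested. C1qa, C1qb and C1qc averaged 7.09, 6.05 and 7.53 CPM in KO_Opti and 28.5, 22.8 and 27.0 CPM in KO_Norm, against 33.1, 29.9 and 42.4 CPM in WT_Opti and 31.8, 25.5 and 35.5 CPM in WT_Norm. They were lower in KO_Opti than in WT_Opti by 2.22 to 2.49 log2 units (adjusted p at most 1.31e-05), while in KO_Norm against WT_Norm they were -0.16, -0.16 and -0.39 and did not pass (adjusted p at least 0.104). The interaction called C3 and Masp1 higher and Serping1 lower among the members, where 14.4% of all genes were called higher and 17% lower, and called C1qa, C1qb and C1qc lower.

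**Figure D4:**
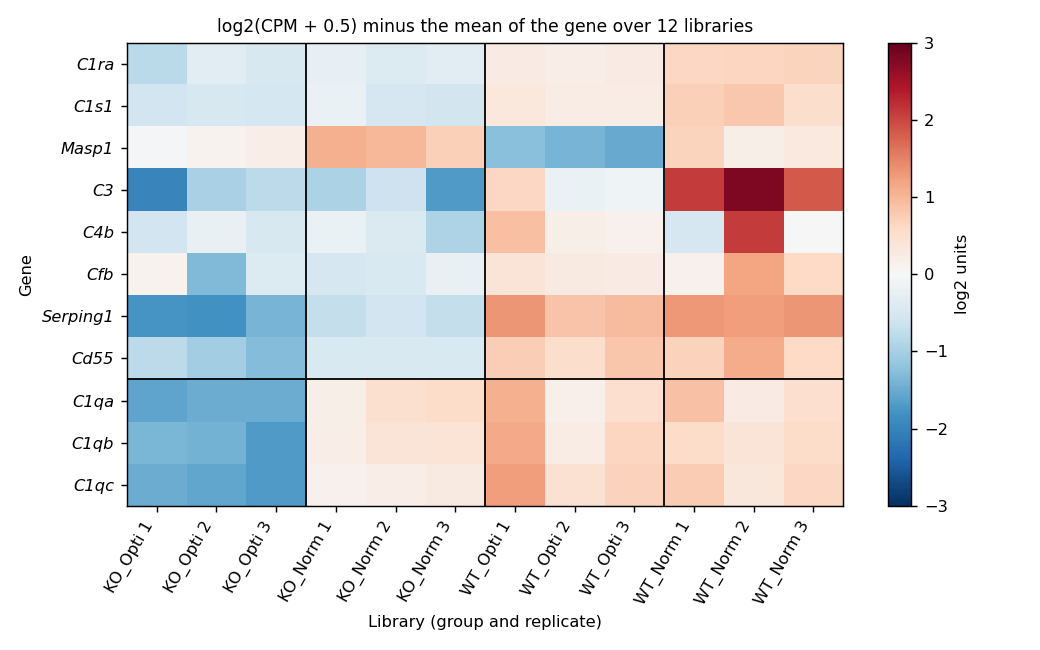
Centred log2(CPM + 0.5) of the 8 members and the 3 C1q genes (rows) in each library (columns), where red is above and blue below the mean of the gene over 12 libraries. The KO libraries are blue for every member but Masp1 and, in KO_Opti replicate 1, Cfb (0.10), and the C1q genes are blue in KO_Opti alone.

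The genes most like each member in pattern differed from member to member. Likeness was the root mean square difference of centred log2 level over 12 libraries, over the 10992 genes that averaged 5 CPM or more. Serping1 was nearest to Fbln1, Ecrg4 and Efs (0.24 to 0.31 log2 units), of which Fbln1 codes for the matrix protein fibulin-1. Fbln1 averaged 18.9 CPM in KO and 75.5 CPM in WT libraries. Masp1 was nearest to Ltbp1, Adam12 and Lox (0.16 to 0.20), which code for a TGF-beta binding matrix protein, a metalloproteinase and the collagen crosslinker lysyl oxidase. Lox was 0.83 log2 units higher in KO over both media and 2.04 lower in WT_Opti than in WT_Norm, against 1.01 higher and 1.80 lower for Masp1. C3 was nearest to Bmp3, Col24a1 and Galnt5 (0.42 to 0.45), C1ra to Zbtb7c, Fkbp9 and Plpp1 (0.11), and C1s1 to C1ra, Iqgap2 and Dkk3 (0.13 to 0.14). Cd55 was nearest to Fam174b, Efs and Fam102a (0.18 to 0.27), Cfb to Aamdc, Itm2a and Pyroxd2 (0.29 to 0.34), and C4b to Epas1, Aldh1a1 and Pdzd2 (0.48 to 0.51).

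Neighbours on the chromosome were measured to set the members beside their surroundings. Gpr108, beside C3, was lower in KO by 0.26 log2 units (adjusted p = 0.00307), and Ube2l6, beside Serping1, by 0.53 (adjusted p = 0.0023). Rtp4, an interferon-induced gene that overlaps the start of Masp1 on the other strand, was 1.53 log2 units higher in WT_Opti than in WT_Norm (adjusted p = 0.00164), where Masp1 was lower. Between genotypes Rtp4 was 1.40 in KO_Norm against WT_Norm (adjusted p = 0.00368) and -1.32 in KO_Opti against WT_Opti (adjusted p = 0.0063) by title, which average to 0.04 over both media (adjusted p = 0.899). Under the treatment entries neither genotype difference of Rtp4 passed. It was 0.22 in KO titled Opti against WT_Norm (adjusted p = 0.601) and -0.13 in KO titled Norm against WT_Opti (adjusted p = 0.817). Tnxb, beside C4b, averaged 0.258 CPM in KO and 0.830 CPM in WT libraries.

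Other complement regulators were mostly called lower in KO within Norm titles and in serum-free WT cells. Of 11 tested genes in the regulator list, 6 were lower and 1 higher in KO within Norm titles, where 17.2% and 18.9% of all genes were. Within Opti titles 1 was lower and 1 higher, where 14.9% and 13.3% of all genes were. The medians were -1.45 within Norm titles and 0.00 within Opti titles. Over both media 6 were lower and 1 higher, where 16% and 18% of all genes were. In WT_Opti 7 were lower and 1 higher, where 19.6% and 20.3% of all genes were. With KO titled Norm set against WT_Opti, 1 was lower and 3 were higher, where 11% and 12.6% of all genes were. Clu, the terminal pathway regulator clusterin, was 1.70 log2 units lower in KO within Norm titles (adjusted p = 6.84e-05) and -0.22 within Opti titles (adjusted p = 0.493). Cd59a, an inhibitor of the membrane attack complex, was 1.503 log2 units lower in WT_Opti (adjusted p = 7.44e-06) and did not pass between genotypes (0.18, adjusted p = 0.228). Cr1l, the rodent membrane regulator Crry, was the gene that rose in KO over both media, by 0.31 log2 units (adjusted p = 0.00281), with 0.61 within Norm titles and 0.00 within Opti titles. Cpn2, a subunit of carboxypeptidase N, had 0 counts in the 3 WT_Opti libraries against 40, 43 and 67 counts in WT_Norm, the last from the library with liver transcripts.

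Of the 24 genes listed as further components, 11 were tested. In KO over both media, 7 were lower and none higher, where 16% and 18% of all genes were. The 7 were led by C2, C1qc (-1.44, adjusted p = 3.4e-06) and C1qb (-1.23, adjusted p = 2.02e-05). In WT_Opti against WT_Norm, C1rl was lower and C2 higher, where 19.6% and 20.3% of all genes were. Among those not tested, counts came mainly from WT_Norm replicates 2 and 3. C7, of the terminal pathway, had 302 of its 306 counts in WT_Norm replicate 2, and Cfd, which codes for factor D, had its 157 counts there. The terminal genes C8a, C8b and C9 had 42, 54 and 40 counts in WT_Norm replicate 3, the library with liver transcripts, and none elsewhere. Of 8 tested receptors, 3 were lower and 1 higher in KO over both media, where 16% and 18% of all genes were. Within Opti titles 5 were lower and none higher, where 14.9% and 13.3% of all genes were. Within Norm titles none was lower and 1 was higher, where 17.2% and 18.9% of all genes were. All 10 myeloid markers were lower within Opti titles as well, and none was within Norm titles, and their part in the receptor values was not tested. In KO titled Opti against WT_Norm, 6 receptors were lower and 1 higher, and 10 myeloid markers were lower. There 20.3% and 21.3% of all genes were called lower and higher. In KO titled Norm against WT_Opti, 1 receptor was lower and 2 higher, and 3 myeloid markers were lower. There 11% and 12.6% of all genes were called lower and higher. Itgax, a subunit of complement receptor 4, was lower (-2.85, adjusted p = 8.92e-05), as was C3ar1, the receptor of C3a (-0.85, adjusted p = 0.000338). C1qbp, which binds C1q heads and resides mostly in mitochondria, was higher (0.50, adjusted p = 0.000609). In WT_Opti, Itgax (1.78, adjusted p = 0.0119) and C1qbp (0.36, adjusted p = 0.0297) were higher and Vsig4, a macrophage receptor for C3b, was lower on at most 29 counts per WT library (adjusted p = 0.0123).

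Cytokines and receptors known to induce complement were counted next. Of 11 tested genes in the inducer list, 4 were lower and 2 higher in KO over both media, where 16% and 18% of all genes were. Within Opti titles 3 were lower and 4 higher, where 14.9% and 13.3% of all genes were. Within Norm titles 2 were lower and 1 higher, where 17.2% and 18.9% of all genes were. In WT_Opti 3 were lower and none higher, where 19.6% and 20.3% of all genes were. Lifr, a receptor of the interleukin 6 family, measured 32.4 CPM in KO_Opti and 32.1 CPM in KO_Norm, against 21.3 CPM in WT_Opti and 122 CPM in WT_Norm. By title Lifr was 0.61 log2 units higher in KO_Opti than in WT_Opti (adjusted p = 0.00125) and 1.93 lower in KO_Norm than in WT_Norm. Il1r1, the interleukin 1 receptor, was 0.86 log2 units lower in KO (adjusted p = 3.11e-05) and 0.82 lower in WT_Opti (adjusted p = 0.000488). Ifngr1 was 0.58 lower in WT_Opti (adjusted p = 0.00142) and Ifngr2 was 0.33 lower in KO (adjusted p = 0.00269), the pair that forms the interferon gamma receptor.

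Transcription factors and feedback genes of cytokine signalling were counted in the same way. Of 14 tested, 5 were higher and 1 lower in KO over both media, where 18% and 16% of all genes were. In WT_Opti 7 were higher and 3 lower, where 20.3% and 19.6% of all genes were. Socs3, the feedback inhibitor of cytokine receptors, was 0.92 log2 units higher in KO (adjusted p = 1e-05) and 0.95 lower in WT_Opti (adjusted p = 9.7e-05). Cebpd, a C/EBP factor of acute phase genes, was 0.79 higher in KO over both media (adjusted p = 0.000376), with 1.74 within Opti titles and -0.17, not called, within Norm titles, and 1.23 lower in WT_Opti (adjusted p = 0.000135). Irf9, the DNA-binding subunit of the interferon-activated complex ISGF3, was 1.55 higher in WT_Opti (adjusted p = 6.84e-07) and differed in direction between genotypes by title, at 1.18 in KO_Norm against WT_Norm and -0.36 in KO_Opti against WT_Opti (adjusted p = 1.02e-05 and 0.035). Cebpb, chosen after its values were seen, measured 39.1, 47.8 and 37.9 CPM in KO_Opti and 45.5, 73.4 and 66.7 CPM in KO_Norm, against 57.8, 59.9 and 72.7 CPM in WT_Opti and 7.36, 18.9 and 2.61 CPM in WT_Norm.

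Sequence before the start of C3, C1s1 and Cd55 is shown because all 3 were lower in KO cells and their annotated start could be matched. RefSeq windows on GRCm38.p6 were matched for 4 of 8 members, and the 250 bases before the start are given for the 3 whose RefSeq start equals the start in the table. They are chr17:57228137-57228386 for C3, chr6:124542360-124542609 for C1s1 and chr1:130462745-130462994 for Cd55, each read on the minus strand. Capitals mark matches on either strand to TTNNGNAA, a form of the C/EBP motif, which 36.9% of 32851 such windows hold.
C3: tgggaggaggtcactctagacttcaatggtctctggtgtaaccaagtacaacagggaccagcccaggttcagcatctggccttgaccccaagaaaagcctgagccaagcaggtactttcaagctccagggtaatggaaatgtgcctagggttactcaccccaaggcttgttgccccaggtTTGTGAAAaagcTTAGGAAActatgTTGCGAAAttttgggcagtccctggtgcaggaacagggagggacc
C1s1: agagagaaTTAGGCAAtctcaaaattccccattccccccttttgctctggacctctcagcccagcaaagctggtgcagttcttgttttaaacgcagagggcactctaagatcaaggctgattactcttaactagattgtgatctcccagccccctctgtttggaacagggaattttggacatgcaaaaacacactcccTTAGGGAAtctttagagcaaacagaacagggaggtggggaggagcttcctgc
Cd55: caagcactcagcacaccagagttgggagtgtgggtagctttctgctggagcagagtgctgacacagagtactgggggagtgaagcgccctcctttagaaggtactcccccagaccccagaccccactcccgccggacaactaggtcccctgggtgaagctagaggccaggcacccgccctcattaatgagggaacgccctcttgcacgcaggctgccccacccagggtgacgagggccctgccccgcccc
The C3 window holds 3 such matches at 38 to 70 bases before the start, the C1s1 window holds 2, and the Cd55 window holds none. TTCNNNGAA (the STAT motif, in 7.02% of windows), GAAA then NN then GAAA (an interferon element, in 2.98%) and GGG then NN then TTTCC (an NF-kB form, in 1.41%) had no match in these windows on either strand. A match is a description of these letters and not a binding site.

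Of 7 other secreted acute phase genes tested, 6 were lower and 1 higher in KO over both media, where 16% and 18% of all genes were. Within Norm titles 5 were lower and 1 higher, where 17.2% and 18.9% of all genes were. Within Opti titles 2 were lower and 1 higher, where 14.9% and 13.3% of all genes were. In WT_Opti 4 were lower and none higher, where 19.6% and 20.3% of all genes were. Serpina3n, a secreted protease inhibitor, measured 3.71 CPM in KO_Opti and 16.4 CPM in KO_Norm, against 32.7 CPM in WT_Opti and 51.3 CPM in WT_Norm, and was 2.39 log2 units lower in KO (adjusted p = 4.99e-09). Cp, which codes for ceruloplasmin, was 0.73 lower in KO (adjusted p = 0.000334). Ptx3, a pattern recognition protein that binds C1q, was the gene that rose, by 1.26 log2 units in KO (adjusted p = 8.27e-07), and it was 0.46 lower in WT_Opti (adjusted p = 0.0135). Hp, which codes for haptoglobin, was lower in WT_Opti (adjusted p = 0.00176), with 620 and 210 of its counts in WT_Norm replicates 2 and 3 against 57 in replicate 1.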

How the data were processed

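Per the labels and the methods, poly(A) RNA was sequenced in pairs of reads on an Illumina NovaSeq after a stranded TruSeq preparation, and reads passed FastQC, HISAT2, StringTie, gffcompare and edgeR. For versions and build, the entry is: not given in the sources used here. The deposited table holds raw counts per gene and FPKM per gene for 12 libraries, which the authors made without pooling replicates. Counts were tested with edgeR 4.0.16 in R 4.3.3 (filterByExpr, TMM, quasi-likelihood fit over the 4 groups, Benjamini-Hochberg adjustment). SE is the log2 change divided by the root of F, and the interaction is the KO response to Opti minus the WT response. FPKM, the authors' values, served for levels between genes and for limma 3.58.1. The other tool was DESeq2 1.42.0. The edgeR fit of WT_Opti against WT_Norm was tried on simulated counts with known changes in WT_Opti. The simulation gave all genes the same relative spread. The other comparisons and tools were not tried on it. Groups came from titles. Replicate numbers were not used to pair libraries in the main fit. Of 18 same-number correlations of deviations from group means, 5 were over 0.1. With 3 libraries per group, such correlations cannot exclude pairing. No library copied another. The limit set by a count of 0 is 3 counts per library and covers counting error only.

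Members and gene lists were chosen with earlier results of these data known. Named genes were the members, the C1q genes, the 3 genes of smallest adjusted p per list in WT_Opti against WT_Norm and in KO against WT, the 3 most similar patterns per member, neighbours on the chromosome, and Cspg4. Lists with fewer tested genes lost those at low counts. The liver list was added after its transcripts were seen in 1 library. Positions and transcripts were read from GENCODE M21. One gene that the naming rule selected is not reported here.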

Additional observations from a re-analysis of the deposited data

Results flagged for a closer look

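The response of 3 members to the medium differed between KO and WT cells by the interaction test. Of all genes tested, 14.4% were called higher and 17% lower in that test. The difference, KO minus WT, was 2.11 log2 units for C3, -0.80 for Serping1 and 0.95 for Masp1. C3 was low in every KO library and responded in WT cells. Its interaction call was lost in 8 of the 24 alternatives described below. Under the treatment entries of the KO libraries the differences were 2.46 for C3, 1.28 for Serping1 and 2.65 for Masp1, so the sign for Serping1 rests on the label used.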

How the results depend on the processing

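Of 25 alternatives, 24 were run for KO against WT over both media and for the interaction, and 25 for the other comparisons, and 2 (WT_Norm reduced to its first library, and counts of each member and its most similar gene summed) were chosen after seeing the data. Of 1184 member values, 1096 kept direction and side of the threshold, 66 lost the call, 15 gained one and 7 reversed. The causes were not tested. With the Y-linked covariate, all calls numbered 714 in KO against WT, 787 within Norm titles, 3406 within Opti titles, 1961 for KO_Opti against KO_Norm and 3437 for the interaction, against 6491, 6896, 5395, 3709 and 6007, and members called were 4, 4 and 1 in KO against WT, within Norm titles and for the interaction, against 8, 8 and 3. With WT_Norm reduced, calls within Norm titles were 3839, with 5 members, and 1 member for the interaction, and C4b within Norm titles was 0.035. Limma on either FPKM scale called 2 members in WT_Opti against WT_Norm, against 4. By treatment entry the interaction called 6 members, with Serping1 at 1.28 and Cd55 at 0.74. The share of all genes called in that fit is not given here, so that count cannot be set against it. Under the same reading Masp1 within Norm titles was -0.32, and Serping1, Cd55 and Masp1 in KO_Opti against KO_Norm were 1.04, 0.62 and 0.85. Leaving out 1 library gave 2091 to 4232 calls for KO_Opti against KO_Norm. Library size alone as the scaling gave 66.4% of calls higher in KO over both media, against 53.0% with TMM, 59.3% against 47.1% within Opti titles and 70.1% against 43.3% for KO_Opti against KO_Norm. On log2(FPKM + 0.1) it was 68.6% against 52.4% within Norm titles. A fit with the replicate block called 6260 genes in KO against WT, and the 1 member call it lost was C4b within Norm titles (-1.53, adjusted p = 0.0719). At 38 to 147 counts per library, C3 in KO cells limits what the depth can show between media.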
